A study of Drosophila melanogaster with 9 samples.

Results

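The 5 genes Ilp6, daw, upd2, ImpL2 and NLaz encode signals that the Drosophila melanogaster fat body secretes in response to nutrients. They were chosen by name, with earlier results of these data known. They are the rows of the deposited expression table that carry these gene symbols, and all 5 were found among its 10372 genes. Their RNA was followed across 3 groups of larvae that differed in cross, in a transgene for an active insulin receptor (InR) and in heat treatment.

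Total RNA from fat bodies of female larvae in the feeding middle part of the last instar was sequenced after removal of ribosomal RNA, in 3 libraries per group. InRCA_HS larvae came from hs-GAL4 virgin females crossed to males of Bloomington stock 8263, which carry UAS-InR.A1325D, a constitutively active insulin receptor, and were heated at 37 °C for 30 min, with fat bodies taken 6 h later. InRCA_noHS larvae were of the same cross, were kept at the rearing temperature of 25 °C and were moved to a new vial without heat. control_HS larvae came from hs-GAL4 females crossed to males of stock 6598 (y1w1118), carried no UAS-InR transgene and were heated in the same way. The driver hs-GAL4, a heat-shock promoter in front of GAL4, was present in all 3 groups, and it acts in tissues throughout the larva and not in the fat body alone. Fat bodies were separated by shearing and centrifugation, and no label says that the libraries of a group are separate cultures or sets of animals. The p-values given here therefore describe the spread among these libraries, which may be technical. In InRCA_HS against control_HS receptor activation and cross cannot be told apart. An unheated control cross was not analysed here, so that in InRCA_HS against InRCA_noHS receptor activation and heat cannot be told apart, nor can cross and heat in InRCA_noHS against control_HS.

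The fat body combines roles of the vertebrate liver and adipose tissue, and it reports the state of nutrition to the brain and to growing tissues through the haemolymph. Active insulin receptor signalling keeps the transcription factor FOXO out of the nucleus. In Drosophila, FOXO is known to bind and regulate Ilp6, daw and ImpL2. Ilp6 is an insulin-like peptide made mainly by the fat body, and ImpL2 is a secreted immunoglobulin-domain protein that binds insulin-like peptides and lowers insulin signalling. daw (dawdle) is an activin-like ligand of the TGF-beta family, upd2 (unpaired 2) is a leptin-like cytokine that acts on the brain through the JAK/STAT pathway, and NLaz (Neural Lazarillo) is a lipocalin related to apolipoprotein D that dampens insulin signalling and is induced by the stress kinase JNK.

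The values are adjusted counts, that is, read counts brought by the authors to a common library size. Whole reads recovered from them summed to between 8760391 and 17599629 per library, so the libraries held different amounts of counting information. InR itself measured the transgene together with the resident gene and averaged 58288 ± 9633 adjusted counts in InRCA_HS, 2537 ± 986 in InRCA_noHS and 785 ± 41.8 in control_HS libraries (SD, n = 3 each), with no overlap between any groups. InR was 1.63 higher on the log2 scale in InRCA_noHS than in control_HS (SE 0.25, limma, Benjamini-Hochberg adjusted p = 0.00467), so the unheated cross was not at the control level. The table held 0 values equal to 0, and the lowest recovered count was 1 read, so it cannot show a gene as absent from a library. All 7 listed fat body markers were in the table. Their summed adjusted counts were 2723310 to 3540221 in InRCA_HS, 2728466 to 4119090 in InRCA_noHS and 3623871 to 4067151 in control_HS libraries. The median log2 fold change of all genes was 0 in InRCA_HS against control_HS, -0.14 in InRCA_HS against InRCA_noHS and 0.12 in InRCA_noHS against control_HS. With trimmed mean (TMM) scaling it came to 0, -0.02 and 0. The 3 comparisons share libraries pairwise, so their values are set side by side and not used as evidence for each other.

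Among the 5 genes, daw was lower in InRCA_HS than in both other groups, Ilp6 was highest in InRCA_noHS, and NLaz was higher in InRCA_noHS than in control_HS. A gene was called changed where limma gave a Benjamini-Hochberg adjusted p under 0.05 over all genes. In InRCA_HS against control_HS 1 of the 5 genes (daw, lower) was called, against 2.43% of all genes, and in InRCA_HS against InRCA_noHS 2 of 5 (Ilp6 and daw, both lower), against 2.55% of all genes. In InRCA_noHS against control_HS 2 of 5 (Ilp6 and NLaz, both higher) were called, against 7.03%. Because the 5 genes were chosen with earlier results of these data known, these counts are not a test of the set. Groups that did not overlap were found for 2 of 5 genes in InRCA_HS against control_HS (Ilp6 and daw, 20.6% of all genes), for 3 of 5 in InRCA_HS against InRCA_noHS (Ilp6, daw and upd2, 23.3%) and for 3 of 5 in InRCA_noHS against control_HS (Ilp6, upd2 and NLaz, 27.5%). Groups of 3 that did not overlap were thus common across the table.

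**Figure D1:**
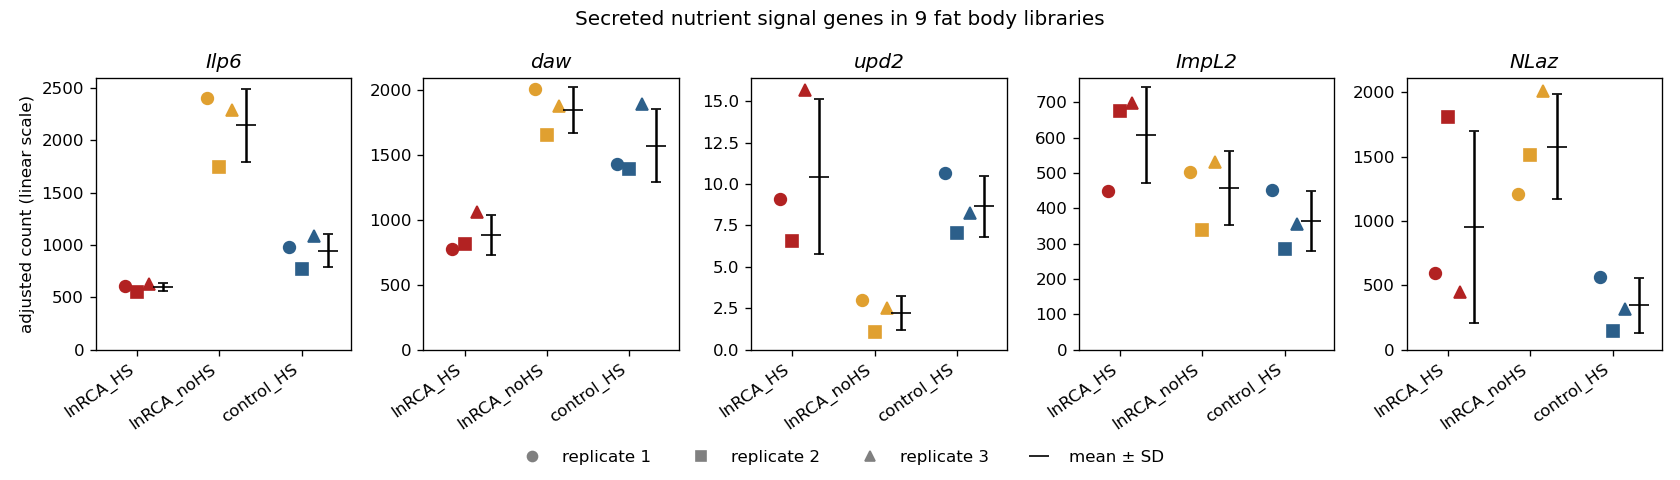
Adjusted counts (linear scale, starting at 0, with a separate vertical axis per gene) of Ilp6, daw, upd2, ImpL2 and NLaz in the 9 libraries, grouped as InRCA_HS, InRCA_noHS and control_HS; symbols mark replicates, and the bar at the right of each group is the mean ± SD of 3 libraries. The Ilp6 groups separate completely, daw is lowest in InRCA_HS, upd2 stays below 3.1 adjusted counts in the InRCA_noHS libraries, and a single InRCA_HS library of NLaz stands at 1811.

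**Figure D2:**
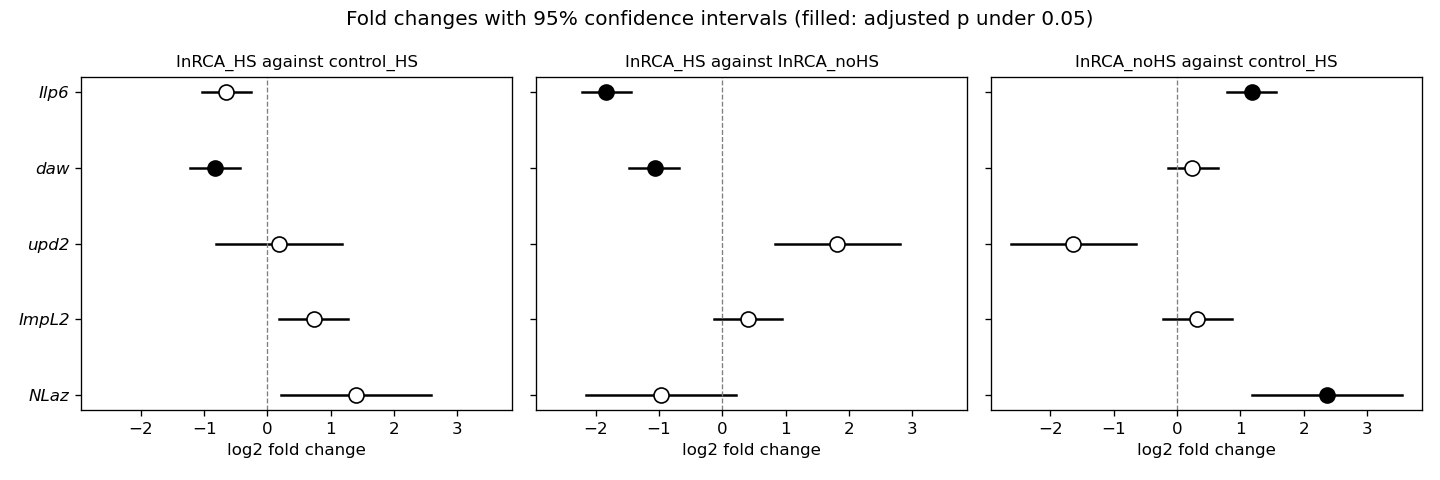
Log2 fold changes with 95% confidence intervals (horizontal axis) of the 5 genes in the 3 comparisons; filled circles mark a limma adjusted p under 0.05. The intervals of Ilp6 and daw are the narrowest, and that of NLaz in InRCA_noHS against control_HS spans 1.18 to 3.56.

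Ilp6, the fat body's insulin-like peptide (FBgn0044047, X chromosome), had 609, 554 and 631 adjusted counts in the 3 InRCA_HS libraries, 2399.6, 1747 and 2287 in InRCA_noHS and 980.4, 772 and 1085 in control_HS. All InRCA_HS values lay below all control_HS values, and these lay below all InRCA_noHS values. The means were 598 ± 39.8 in InRCA_HS, 2144 ± 349 in InRCA_noHS and 946 ± 159 in control_HS (SD, n = 3 each). Ilp6 was 3.55-fold lower in InRCA_HS than in InRCA_noHS (log2 fold change -1.83, SE 0.18, 95% interval -2.22 to -1.44, limma adjusted p = 0.000575), the 11th smallest p of all genes in that comparison. It was 2.27-fold higher in InRCA_noHS than in control_HS (log2 fold change 1.18, SE 0.18, interval 0.79 to 1.57, limma adjusted p = 0.00432). In bulk libraries such as these, fewer cells of a type and less RNA per cell cannot be told apart.

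Between the heated groups Ilp6 had a log2 fold change of -0.65 in InRCA_HS against control_HS (SE 0.18, interval -1.04 to -0.26), with a limma adjusted p of 0.0793. That missed the threshold although the libraries did not overlap. DESeq2 on recovered reads gave the same log2 fold change with an adjusted p of 0.0347, the lowest over all alternatives, of which the highest was 0.252, without control_HS replicate 3. Both called differences of Ilp6 were kept whichever of the 9 libraries was left out, with adjusted p up to 0.00466 in InRCA_HS against InRCA_noHS and up to 0.0268 in InRCA_noHS against control_HS. In the Ensembl BDGP6 annotation Ilp6 overlaps Raf, on the opposite strand, and whether the authors counted by strand is not given in the sources used here, so reads of the 2 genes may be shared. Raf, listed as phl, a kinase of the receptor tyrosine kinase cascade, averaged 239 adjusted counts in InRCA_HS, 303 in InRCA_noHS and 239 in control_HS libraries. Its log2 fold changes were 0.02 and -0.33 in InRCA_HS against control_HS and InRCA_noHS, and 0.36 in InRCA_noHS against control_HS (limma adjusted p = 0.963, 0.41 and 0.252).

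The genes whose profile over the 9 libraries was most like that of Ilp6 were CG16758, CG8451 and CG5966, by the root mean square difference of log2 values after subtracting each gene's mean. That difference was 0.201, 0.277 and 0.279 on the log2 scale, against a median of 0.788 over 8728 genes with a mean of at least 20 adjusted counts. CG5966 averaged 2149 ± 126 adjusted counts in InRCA_HS, 11205 ± 248 in InRCA_noHS and 4337 ± 1449 in control_HS libraries (SD, n = 3 each), which is the Ilp6 order of groups with a wider range. Among the other secreted signals daw was closest to Ilp6, with a difference of 0.428 on the log2 scale, and 0.435% of the compared genes were closer to Ilp6. Seen from daw, 15% of the compared genes were closer than Ilp6.

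ImpL2, the secreted protein that binds insulin-like peptides (FBgn0001257, chromosome arm 3L), had 450.1, 674 and 698 adjusted counts in InRCA_HS, 502, 337 and 531 in InRCA_noHS and 452, 285 and 356 in control_HS libraries. The groups overlapped in every comparison, and in InRCA_HS against control_HS only because replicate 1 of each stood at almost the same value. The means were 607 ± 137 in InRCA_HS, 457 ± 105 in InRCA_noHS and 364 ± 83.9 in control_HS (SD, n = 3 each). ImpL2 had a log2 fold change of 0.73 in InRCA_HS against control_HS (SE 0.25, interval 0.19 to 1.28, limma adjusted p = 0.138), 0.41 in InRCA_HS against InRCA_noHS (interval -0.13 to 0.95, adjusted p = 0.476) and 0.32 in InRCA_noHS against control_HS (interval -0.22 to 0.87, adjusted p = 0.457). None passed the threshold, and the intervals still reach increases of 1.28, 0.95 and 0.87 on the log2 scale. The gene overlaps CG46460 on the same strand in BDGP6, which was not analysed here, so their reads may be shared. The profiles nearest to ImpL2 were those of ems, a homeobox transcription factor, CG42368 and CG42370, with root mean square differences of 0.163, 0.163 and 0.204 on the log2 scale against a median of 0.529. None of these 3 passed the threshold in any comparison, and ems averaged only 49.8 ± 18.2 adjusted counts in InRCA_HS, 38.7 ± 5.4 in InRCA_noHS and 27.3 ± 4.92 in control_HS libraries (SD, n = 3 each).

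The other insulin-like peptides and binding proteins gave no calls, where 2.43%, 2.55% and 7.03% of all genes were called in the 3 comparisons. So few genes without a call do not show that the list was unchanged. Of 11 listed genes 7 were in the table (Ilp1, Ilp4, Ilp7 and Ilp8 were not analysed here), and of the 5 besides Ilp6 and ImpL2, 0 were higher and 0 lower in any comparison, with median log2 fold changes of 0.52 and -0.01 in InRCA_HS against control_HS and InRCA_noHS, and 0.82 in InRCA_noHS against control_HS. Ilp2, a peptide of the brain's insulin-producing cells, averaged 19.1 ± 6.87 adjusted counts in InRCA_HS, 35.2 ± 4.29 in InRCA_noHS and 18.6 ± 2.28 in control_HS libraries (SD, n = 3 each). Its log2 fold changes were -0.01, -0.90 and 0.89 in the same order of comparisons (limma adjusted p = 0.989, 0.202 and 0.115). Ilp5, another peptide of those cells, averaged 8.77 ± 1.91 in InRCA_HS, 8.83 ± 3.03 in InRCA_noHS and 3.06 ± 1.59 in control_HS libraries, the last on 8 reads in all. Its log2 fold changes were 1.32, 0.01 and 1.3 in that order of comparisons (limma adjusted p = 0.129, 0.992 and 0.0943). Ilp3 averaged 21.1 ± 8.59 in InRCA_HS, 25 ± 11.2 in InRCA_noHS and 13.4 ± 6.11 in control_HS libraries, and its groups overlapped in every comparison. Ilp2, Ilp3 and Ilp5 were named after their values were seen, and the part of stray brain RNA in their low counts was not tested.

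daw, the activin-like ligand (FBgn0031461, chromosome arm 2L), had 776, 815 and 1064 adjusted counts in InRCA_HS, 2011, 1657 and 1880 in InRCA_noHS and 1433, 1394 and 1898 in control_HS libraries. All InRCA_HS libraries lay below all others, while InRCA_noHS and control_HS overlapped. The means were 885 ± 156 in InRCA_HS, 1849 ± 179 in InRCA_noHS and 1575 ± 280.3 in control_HS (SD, n = 3 each). Set against control_HS, daw was 1.78-fold lower in InRCA_HS, at -0.83 on the log2 scale (SE 0.18, interval -1.23 to -0.44, limma adjusted p = 0.0392). Set against InRCA_noHS, it was 2.1-fold lower in InRCA_HS, at -1.07 on the log2 scale (SE 0.18, interval -1.47 to -0.68, limma adjusted p = 0.0108). In InRCA_noHS against control_HS the log2 fold change was 0.24 (interval -0.15 to 0.64, limma adjusted p = 0.444). daw was 1 of 12 genes, 0.116% of the table, called lower in InRCA_HS than in both other groups, 2 comparisons that share the InRCA_HS libraries.

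The call of daw between the heated groups was narrow. Leaving out 1 library kept it only without InRCA_HS replicate 3 or control_HS replicate 1, and the other 7 fits gave log2 fold changes of -0.91 to -0.69 and limma adjusted p values of 0.0594 to 0.163, the highest without InRCA_HS replicate 1. In InRCA_HS against InRCA_noHS the adjusted p was 0.053 on leaving out InRCA_HS replicate 1, and 0.0506 and 0.055 on leaving out replicates 1 and 3 of InRCA_noHS, and the call held in the other 6 fits. Summed markers of neurons and glia were 4597 to 5446 adjusted counts in InRCA_HS, 6445 to 7259 in InRCA_noHS and 5950 to 8766 in control_HS libraries, for all 8 listed genes, and were lowest in InRCA_HS without overlap. Syt1 was the most abundant of them, and without it the other 7 genes summed to 1390 to 2395 in InRCA_HS, 1424 to 1679 in InRCA_noHS and 1504 to 2086 in control_HS libraries, which overlap. 0 of these 8 passed the threshold in any comparison, and their part in the daw result was not tested. The sum of fat body markers was also lower in InRCA_HS than in control_HS libraries without overlap, but without Lsp2, its most abundant gene, it was 2001110 to 2536821 in InRCA_HS and 2394371 to 2775451 in control_HS libraries, which overlap.

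None of the other genes of the activin branch passed the threshold beside daw. With 2.43%, 2.55% and 7.03% of all genes called in the 3 comparisons, 0 calls among so few genes do not show an unchanged branch. All 12 listed genes were in the table, and of the 11 besides daw 0 were higher and 0 lower in any comparison, with median log2 fold changes of -0.06 and -0.33 in InRCA_HS against control_HS and InRCA_noHS, and 0.14 in InRCA_noHS against control_HS. The receptor babo (Baboon), through which daw signals, averaged 655 ± 44.3 adjusted counts in InRCA_HS, 737 ± 79.3 in InRCA_noHS and 668 ± 54.6 in control_HS libraries (SD, n = 3 each), with a log2 fold change of -0.03 in InRCA_HS against control_HS (interval -0.35 to 0.29, limma adjusted p = 0.944). The protease tok (Tolkin), which can activate dawdle, averaged 1507 ± 336 in InRCA_HS, 2171 ± 202 in InRCA_noHS and 2061 ± 305 in control_HS libraries. Its log2 fold changes in InRCA_HS were -0.47 against control_HS (limma adjusted p = 0.225) and -0.55 against InRCA_noHS (adjusted p = 0.203). babo and tok were named after their values were seen.

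The profiles most like that of daw were those of ltl, HDAC4, a histone deacetylase, and CG16719, with root mean square differences of 0.116, 0.128 and 0.138 on the log2 scale, against a median of 0.555. All 3 were lower in InRCA_HS than in InRCA_noHS, with log2 fold changes of -1.03, -0.88 and -1.16 (limma adjusted p = 0.0119, 0.0354 and 0.0326). In InRCA_HS against control_HS they had log2 fold changes of -0.73, -0.74 and -0.99, and none passed the threshold (limma adjusted p = 0.0567, 0.0681 and 0.0637). daw is also known as a sugar-responsive gene. Among the 7 other sugar-sensing regulators and targets 1 was lower in InRCA_HS against control_HS (2.43% of all genes called). In InRCA_HS against InRCA_noHS 0 changed (2.55%), and 1 was lower in InRCA_noHS against control_HS (7.03%). The first was tobi, a glycosidase gene that responds to diet, at 50.1 ± 23.8 adjusted counts in InRCA_HS, 135 ± 27.4 in InRCA_noHS and 249.6 ± 135 in control_HS libraries (log2 fold change -2.23 in InRCA_HS against control_HS, SE 0.44, limma adjusted p = 0.031). The second was sug (sugarbabe), a sugar-induced zinc finger repressor, with a log2 fold change of -1.77 in InRCA_noHS against control_HS (limma adjusted p = 0.0369). Leaving out 1 library kept the call of tobi in 3 of 9 fits and that of sug in 5 of 9.

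upd2, the leptin-like cytokine (FBgn0030904, X chromosome), was near the bottom of the table, with only 5.44% of genes at a lower mean. That rank is among genes that all had at least 1 recovered read in every library. upd2 had 9.11, 6.57 and 15.6 adjusted counts in InRCA_HS, 3.02, 1.04 and 2.52 in InRCA_noHS and 10.7, 7.06 and 8.27 in control_HS libraries. All 3 InRCA_noHS libraries lay below all heated libraries, and the heated groups overlapped. These values rest on 11, 7 and 22 recovered reads in InRCA_HS, 2, 1 and 3 in InRCA_noHS and 11, 6 and 5 in control_HS libraries. As RPM over the total of recovered reads of a group, that was 0.939 in InRCA_HS (exact Poisson 95% interval 0.671 to 1.28), 0.166 in InRCA_noHS (0.061 to 0.362) and 0.655 in control_HS (0.411 to 0.992), and these intervals cover counting error only. They make no allowance for a table in which the lowest recovered count is 1 read.

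upd2 averaged 10.4 ± 4.69 adjusted counts in InRCA_HS, 2.2 ± 1.03 in InRCA_noHS and 8.67 ± 1.85 in control_HS libraries (SD, n = 3 each). It missed the threshold in all comparisons. Its log2 fold change was 1.82 in InRCA_HS against InRCA_noHS (SE 0.45, interval 0.83 to 2.81, limma adjusted p = 0.0655) and -1.64 in InRCA_noHS against control_HS (SE 0.45, interval -2.63 to -0.65, adjusted p = 0.0531). Between the heated groups it was 0.18 (SE 0.45, interval -0.81 to 1.17, limma adjusted p = 0.877), and without InRCA_HS replicate 3 it was -0.13. Adding 1 before taking logs shrinks fold changes at such low counts. On recovered reads edgeR's quasi-likelihood test gave 2.33 in InRCA_HS against InRCA_noHS with a Benjamini-Hochberg adjusted p of 0.0481, within a range of 0.0335 to 0.212 over all alternatives, the highest being without InRCA_noHS replicate 2, and 0 of the 9 fits without 1 library passed.

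The profiles nearest to upd2 were those of CG12826, Ndg (nidogen) and vkg (a collagen IV chain), with root mean square differences of 0.405, 0.414 and 0.425 on the log2 scale against a median of 1.01. Nidogen and collagen IV are parts of the basement membrane, which in the larva both blood cells (hemocytes) and the fat body produce. Ndg averaged 646 ± 84.7 adjusted counts in InRCA_HS, 146 ± 60.1 in InRCA_noHS and 656 ± 142 in control_HS libraries (SD, n = 3 each). It was higher in InRCA_HS than in InRCA_noHS (log2 fold change 2.22, limma adjusted p = 0.00284) and lower in InRCA_noHS than in control_HS (-2.22, adjusted p = 0.00159). CG12826 and vkg passed the threshold in the same 2 comparisons and directions, with adjusted p between 0.00958 and 0.0213. The summed adjusted counts of 9 of 10 hemocyte markers were likewise lowest in InRCA_noHS without overlap, at 11395 to 18196 in InRCA_HS, 7943 to 9667 in InRCA_noHS and 11518 to 18143 in control_HS libraries. 0 of these markers were at 0, which held for every gene of the table. Without Cg25C, the most abundant of them, the other 8 summed to 5582 to 8791 in InRCA_HS, 5653 to 6676 in InRCA_noHS and 6097 to 9219 in control_HS libraries, and all groups overlapped. PO45 (a prophenoloxidase) and crq (a scavenger receptor), named after their values were seen, had their highest means in InRCA_noHS, with PO45 at 2008 ± 372 adjusted counts in InRCA_HS, 2197 ± 557 in InRCA_noHS and 1728 ± 175 in control_HS libraries. The collagen IV gene Cg25C, which the fat body also expresses, was higher in InRCA_HS than in InRCA_noHS (log2 fold change 1.48, limma adjusted p = 0.0272) and lower in InRCA_noHS than in control_HS (-1.28, adjusted p = 0.0313). nimC1, a phagocytosis receptor of hemocytes, was lower in InRCA_noHS than in control_HS (-1.35, adjusted p = 0.0365). Leaving out 1 library kept the calls of Cg25C in 4 of 9 fits each and that of nimC1 in 3 of 9. The part of hemocyte RNA in the upd2 values was not tested.

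Among the other JAK/STAT genes 1 passed the threshold, in a comparison where 2.55% of all genes did. All 11 listed genes were in the table, and of the 10 besides upd2 1 was higher in InRCA_HS against InRCA_noHS and 0 changed in the other comparisons, with median log2 fold changes of 0.04 and -0.07 in InRCA_HS against control_HS and InRCA_noHS, and -0.16 in InRCA_noHS against control_HS. That gene was os (upd1), a ligand of the same family, with 90.9, 31.1 and 40.3 adjusted counts in InRCA_HS, 10.9, 8.24 and 10.045 in InRCA_noHS and 9.65, 28.6 and 13.5 in control_HS libraries. All InRCA_HS libraries were above all others, and replicate 1 was the highest by far. The log2 fold change of os was 2.21 in InRCA_HS against InRCA_noHS (SE 0.46, limma adjusted p = 0.0319) and 1.58 in InRCA_HS against control_HS (SE 0.46, adjusted p = 0.0976). The call held in 4 of 9 fits without 1 library, and without InRCA_HS replicate 1 the value was 1.77 with an adjusted p of 0.118. The remaining ligand, upd3, averaged 14.3 ± 5.25 adjusted counts in InRCA_HS, 5.93 ± 4.36 in InRCA_noHS and 14.8 ± 7.02 in control_HS libraries (SD, n = 3 each), and its log2 fold changes of -0.01 and 1.33 in InRCA_HS against control_HS and InRCA_noHS, and of -1.34 in InRCA_noHS against control_HS, did not pass (limma adjusted p = 0.994, 0.323 and 0.198). Socs36E, a feedback inhibitor and widely used target of the pathway, averaged 339 ± 90.3 in InRCA_HS, 375 ± 37 in InRCA_noHS and 508 ± 38.3 in control_HS libraries. Its log2 fold change was -0.61 in InRCA_HS against control_HS (limma adjusted p = 0.119) and -0.44 in InRCA_noHS against control_HS (adjusted p = 0.2). upd3 and Socs36E were named after their values were seen.

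NLaz, the apolipoprotein D-like lipocalin (FBgn0053126, chromosome arm 2L), had 599.5, 1811 and 451 adjusted counts in InRCA_HS, 1209.9, 1510.2 and 2014 in InRCA_noHS and 566, 146 and 319 in control_HS libraries. All InRCA_noHS libraries lay above all control_HS libraries, and InRCA_HS overlapped both because its replicate 2 reached the InRCA_noHS range. The means were 954 ± 746 in InRCA_HS, 1578 ± 406 in InRCA_noHS and 344 ± 211 in control_HS (SD, n = 3 each). NLaz was 5.17-fold higher in InRCA_noHS than in control_HS (log2 fold change 2.37, SE 0.54, interval 1.18 to 3.56, limma adjusted p = 0.0267). In InRCA_HS the log2 fold change was 1.4 against control_HS (SE 0.54, interval 0.21 to 2.59, limma adjusted p = 0.195) and -0.97 against InRCA_noHS (interval -2.16 to 0.22, adjusted p = 0.437).

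NLaz had the largest pooled spread within groups of the 5 genes. Its pooled SD was 0.859 on the log2 scale, larger than that of 95% of genes, against 0.211 for Ilp6, 0.216 for daw, 0.347 for ImpL2, 0.474 for upd2 and a median of 0.306 over all genes. By group the SD was 1.06 in InRCA_HS, 0.368 in InRCA_noHS and 0.98 in control_HS, and in InRCA_noHS upd2 varied more, at 0.519. The highest library stood 4.02 times above the lowest in InRCA_HS, 1.66 times in InRCA_noHS and 3.89 times in control_HS. The call in InRCA_noHS against control_HS was lost in 5 of 9 fits without 1 library, with limma adjusted p values of 0.0537, 0.0834 and 0.1 without InRCA_noHS replicates 1, 2 and 3, 0.102 without control_HS replicate 2 and 0.0662 without control_HS replicate 3. Over all 9 fits the log2 fold change lay between 1.86 and 2.83. Summed adjusted counts of 7 of 8 salivary gland markers were 58531 to 180684 in InRCA_HS, 33517 to 105335 in InRCA_noHS and 14453 to 40496 in control_HS libraries, and the highest sum was that of InRCA_HS replicate 2, the library with the highest NLaz of its group. In InRCA_noHS the order differed, since replicate 1 had the highest sum (105335) and the lowest NLaz, and replicate 3 had the highest NLaz at a sum of 68048. In control_HS replicate 1 had both the highest sum (40496) and the highest NLaz. Replicates 2 and 3 of control_HS had nearly equal sums (14676 and 14453), with the lowest NLaz in replicate 2. 0 of the markers were at 0, which held for every gene of the table. The glue gene Sgs5 was higher in InRCA_noHS than in control_HS (log2 fold change 3.29, limma adjusted p = 0.00134). It was also called higher in InRCA_HS than in control_HS, at means of 19420 in InRCA_HS, 10380.5 in InRCA_noHS and 988 in control_HS libraries. The list's median log2 fold change was 1.97 in InRCA_HS against control_HS and 1.43 in InRCA_noHS against control_HS. The part of salivary gland RNA in the NLaz values was not tested.

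The gene with the profile most like that of NLaz was Eip78C, a nuclear receptor induced by the moulting hormone ecdysone. The root mean square difference of its log2 values was 0.222, followed by 0.271 for CG31547 and 0.274 for CG13284, against a median of 1.2 over the compared genes. NLaz lay -0.25, 1.34 and -0.66 from its own mean on the log2 scale in InRCA_HS, 0.76, 1.08 and 1.5 in InRCA_noHS and -0.33, -2.28 and -1.16 in control_HS libraries. Eip78C lay at -0.29, 0.97 and -0.53 in InRCA_HS, 0.97, 1.07 and 1.34 in InRCA_noHS and 0.09, -2.49 and -1.13 in control_HS. Both genes were thus high in InRCA_HS replicate 2 and lowest in control_HS replicate 2. Hr46, a further ecdysone-induced nuclear receptor, named after its values were seen, lay at -0.19, 0.98 and -0.87 in InRCA_HS, 0.7, 0.97 and 1.26 in InRCA_noHS and 0.44, -2.09 and -1.19 in control_HS. In the median of 16 ecdysone response genes the same libraries were the highest of InRCA_HS and the lowest of control_HS, at 0.28 and -0.93. These 16 include Eip78C, picked for its likeness to NLaz, and Hr46, so this parallel is in part built in.

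**Figure D3:**
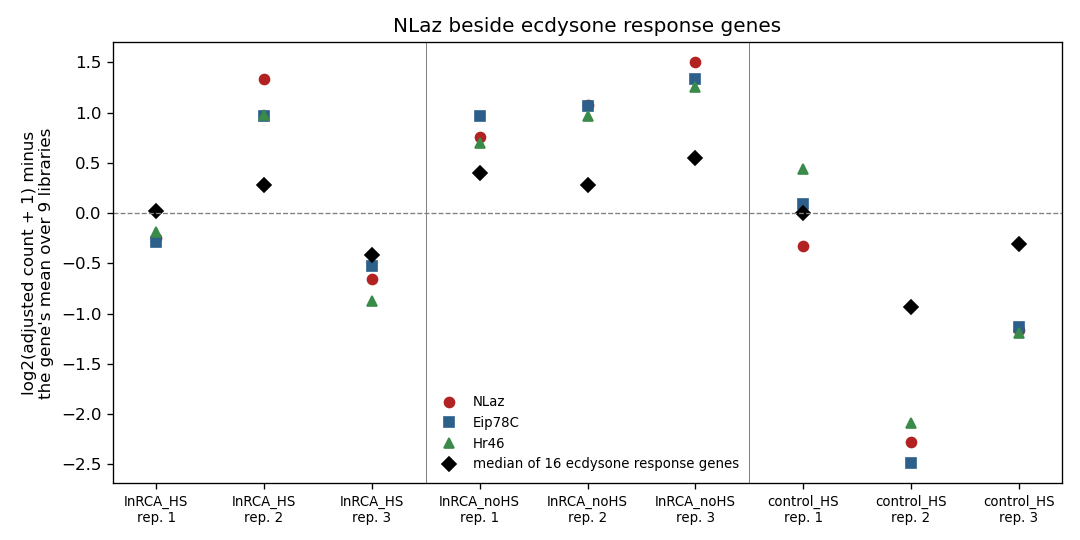
Log2(adjusted count + 1) minus each gene's mean over 9 libraries (vertical axis) for NLaz, Eip78C, Hr46 and the median of 16 ecdysone response genes, in each library of InRCA_HS, InRCA_noHS and control_HS. NLaz and the 2 receptors lie close together in most libraries, with NLaz at 1.34 in InRCA_HS replicate 2 and at -2.28 in control_HS replicate 2, they spread most in control_HS replicate 1 (-0.33 to 0.44), and the list median, which includes both receptors, has a smaller range.

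Of the ecdysone response genes all 17 were in the table, and of the 16 besides ImpL2 5 were higher and 0 lower in InRCA_noHS against control_HS, where the list's median log2 fold change was 0.83 against 0.12 for all genes. Of all genes 7.03% were called in InRCA_noHS against control_HS. In InRCA_HS against control_HS 0 of 16 passed (median 0.34, 2.43% of all genes called), and in InRCA_HS against InRCA_noHS 0 of 16 passed (median -0.56, 2.55%). Besides Eip78C, with a log2 fold change of 2.31 in InRCA_noHS against control_HS (limma adjusted p = 0.033), the higher genes were the nuclear receptor gene Hr39 (1.45, adjusted p = 0.0241), Eip71CD (1.29, adjusted p = 0.0259), the transcription factor gene Eip93F (0.82, adjusted p = 0.0267) and the ETS factor gene Eip74EF (0.84, adjusted p = 0.0403). Leaving out 1 library kept these 5 calls in 3 to 6 of 9 fits. NLaz is not an established member of this list, and its likeness to Eip78C describes 9 libraries only.

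Among the lipocalins and lipid carriers of the haemolymph 8 of 9 genes were in the table. Of the 7 besides NLaz 1 was higher in InRCA_noHS against control_HS and 0 changed in the other comparisons, with median log2 fold changes of -0.17 and -0.09 in InRCA_HS against control_HS and InRCA_noHS, and -0.33 in InRCA_noHS against control_HS. Of all genes 7.03% were called in InRCA_noHS against control_HS, so 1 call among so few genes says little about the list. The lipocalin Karl had 432, 346 and 483 adjusted counts in InRCA_HS, 469.8, 527 and 479 in InRCA_noHS and 361, 302 and 221 in control_HS libraries. InRCA_noHS was above control_HS without overlap (log2 fold change 0.77, limma adjusted p = 0.0462), but the call held in only 3 of 9 fits without 1 library and the adjusted p was 0.0835 with trimmed mean scaling (0.0118 to 0.147 over all alternatives). The second apolipoprotein D relative, GLaz (Glial Lazarillo), had a mean of 24.5 ± 8.59 in InRCA_HS, 17.1 ± 3.5 in InRCA_noHS and 23.7 ± 4.86 in control_HS libraries, with log2 fold changes of 0 and 0.45 in InRCA_HS against control_HS and InRCA_noHS, and -0.45 in InRCA_noHS against control_HS (limma adjusted p = 0.998, 0.595 and 0.46). GLaz was named after its values were seen. Of the 9 JNK pathway genes besides NLaz, 1 was higher in InRCA_noHS against control_HS (7.03% of all genes called) and 0 changed in the other comparisons. It was bsk, the JNK gene itself, at a log2 fold change of 0.68 (limma adjusted p = 0.0385), which with trimmed mean scaling was 0.56 (adjusted p = 0.0757, within 0.0179 to 0.127 over all alternatives). The call of bsk held in 4 of 9 fits without 1 library.

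**Figure D4:**
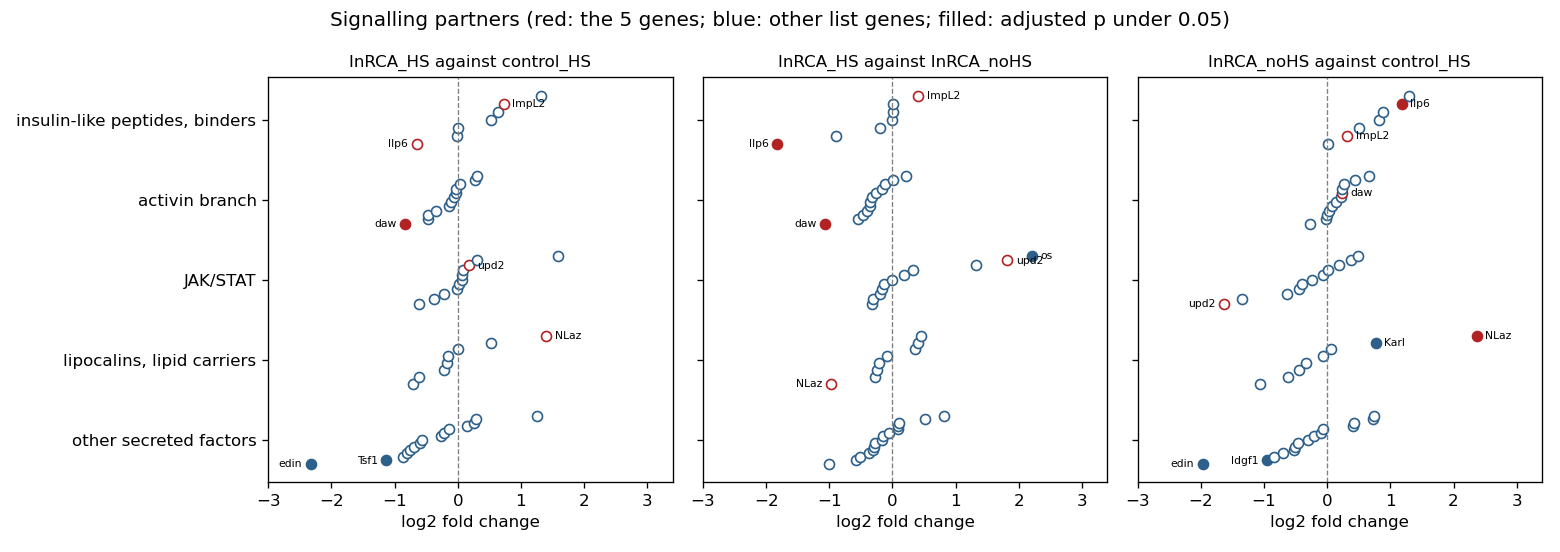
Log2 fold changes (horizontal axis) of the genes of 5 lists in the 3 comparisons; red circles are Ilp6, ImpL2, daw, upd2 and NLaz, blue circles the other list genes, and filled circles mark a limma adjusted p under 0.05. The filled blue circles are os in InRCA_HS against InRCA_noHS, Karl, edin and Idgf1 in InRCA_noHS against control_HS, and edin and Tsf1 in InRCA_HS against control_HS.

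The wider set of FOXO target genes had 15 members in the table, 4 of them being Ilp6, daw, ImpL2 and NLaz. Of the other 11, InR was called in all 3 comparisons, where reads of the transgene and the resident gene cannot be told apart, and 0 others were called, with median log2 fold changes of 0.09 and -0.18 in InRCA_HS against control_HS and InRCA_noHS, and 0.34 in InRCA_noHS against control_HS. The shares over all genes were 2.43%, 2.55% and 7.03%, so 0 calls among so few genes do not show that they were unchanged. Thor, the translation inhibitor 4E-BP and a standard readout of FOXO, had 2141, 2106 and 1324 adjusted counts in InRCA_HS, 2606.5, 1387 and 2014 in InRCA_noHS and 1415, 945 and 879 in control_HS libraries. Thor overlapped between all groups, and its log2 fold change was 0.78 in InRCA_HS against control_HS (SE 0.28, limma adjusted p = 0.16), -0.1 in InRCA_HS against InRCA_noHS (adjusted p = 0.903) and 0.88 in InRCA_noHS against control_HS (adjusted p = 0.0838). Thor was named after its values were seen. The listed FOXO targets Ilp6 and daw thus had negative log2 fold changes in InRCA_HS against control_HS, and ImpL2, NLaz (1.4) and Thor positive ones. Among these genes only daw passed the test. The wider list was mixed, since 8 of its 15 genes, InR among them, had log2 fold changes above 0 in that comparison. Pepck, also named after its values were seen, averaged 8930 ± 5302 adjusted counts in InRCA_HS, 7603 ± 1990 in InRCA_noHS and 22564 ± 8909 in control_HS libraries.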

How the data were processed

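Fat body RNA of larvae was sequenced in 9 libraries, and their titles give the 3 groups. The genome build dm3 and the programs Bowtie 0.12.7, Cufflinks 1.1.0 and TopHat 1.3.2 are listed, without their roles, per the submitters' processing notes. The deposited table gives 1 non-negative signal per gene and library, which its values show to be counts the authors adjusted to a common library size. Not given in the sources used here are the adjusting tool, the annotation and whether strand was used. FPKM had been planned for, and the test on log2 values was kept. The table held 10372 genes and 9 value columns, and 0 columns were left out. Of the gene IDs 9928 were in the gene name table.

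Undoing a quantile adjustment of negative binomial counts with 1 factor per library and a dispersion of 0.072 gave whole reads (within 0.1) for 99.3% of the 38615 values up to 100, and 94.2% in InRCA_noHS replicate 1. The median difference between rebuilt and deposited values was 0.00127%. Totals ranged from 8760391 to 17599629 reads, so low genes such as upd2 carry the largest counting error.

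The test used limma 3.58.1 (R 4.3.3) on log2 of the adjusted count plus 1, in a single fit of all libraries with 3 group means and a spread that followed the mean level. P-values were Benjamini-Hochberg adjusted over all genes with a threshold of 0.05. The filter, a mean of at least 1, removed 0 genes, and the deposited table held only genes with at least 1 recovered read in every library. A fold change on this scale understates changes of low genes. edgeR 4.0.16 and DESeq2 1.42.0 were run on the recovered reads as alternatives. The procedure was also run on simulated counts with 1 dispersion of 0.072 for all genes, and the outcome is not given here. That setting leaves out the wider spread of genes such as NLaz. The 5 genes and the 9 gene lists and 6 marker lists were chosen with earlier results of these data known. Named from the lists were genes past the threshold, at most 4 per list and comparison, and for each of the 5 genes the 3 most similar profiles. Eip74EF, and the genes the text says were named after their values were seen, are additions to that rule. No sequences are shown, and gene positions on dm3 were not used. Overlapping genes come from the Ensembl BDGP6 annotation.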

Additional observations from a re-analysis of the deposited data

How the results depend on the processing

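Under alternatives other than leaving out a library, 164 values of the 5 genes kept their direction and their side of the threshold, 4 lost a call, 9 gained one and 0 changed sign. upd2 has no value under the filter of a mean of at least 20. With limma without the intensity trend, daw in InRCA_HS against control_HS had an adjusted p of 0.0869 (log2 fold change -0.83) and NLaz in InRCA_noHS against control_HS 0.0611 (2.37). A fit of only the 6 libraries compared gave daw -0.83 with an adjusted p of 0.102. DESeq2 called Ilp6 between the heated groups (-0.65, adjusted p = 0.0347). upd2 passed in InRCA_HS against InRCA_noHS with quantile normalization (1.89, adjusted p = 0.0335), without the trend (1.82, 0.0449), with library weights (1.83, 0.0384) and with edgeR (2.33, 0.0481). In InRCA_noHS against control_HS it passed with quantile normalization (-1.72, adjusted p = 0.0309), TMM scaling (-1.73, 0.0426), no trend (-1.64, 0.0344) and library weights (-1.58, 0.0349). The replicate numbers did not pair libraries, since correlations of their deviations were -0.245 to 0.121 over 9 same-numbered pairs and -0.245 to 0.293 over 18 others. With a replicate block NLaz in InRCA_noHS against control_HS kept 2.37 with an adjusted p of 0.0604, no other call of the 5 genes changed, and 186, 186 and 551 genes were called in InRCA_HS against control_HS and InRCA_noHS and in InRCA_noHS against control_HS.

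Leaving out each library gave log2 fold changes of -0.97 to -0.69 (daw) and -0.13 to 0.44 (upd2) in InRCA_HS against control_HS, where upd2 was -0.13 without InRCA_HS replicate 3. It gave -1.21 to -0.98 for daw in InRCA_HS against InRCA_noHS. In InRCA_noHS against control_HS it gave -1.83 to -1.34 for upd2, called only without InRCA_HS replicate 3 (adjusted p = 0.0478), and 1.86 to 2.83 for NLaz. Counts of called genes moved more. In InRCA_HS against control_HS 252 genes were called, 90 without the trend, 900 with library weights, 56 with the 6 libraries compared, 769 with DESeq2, and 56 to 961 without 1 library, the fewest without InRCA_HS replicate 1 and the most without control_HS replicate 1, which had the lowest weight (0.42). In InRCA_HS against InRCA_noHS 265 were called (182 higher, 83 lower), 145 without the trend, 537 with DESeq2 and 106 to 336 without 1 library. TMM scaling gave 238 higher and 59 lower, and edgeR 235 and 53. In InRCA_noHS against control_HS 729 were called (337 higher, 392 lower), 446 without the trend, 1446 with library weights, 1101 with DESeq2 (350 higher, 751 lower), and 267 to 1421 without 1 library, the fewest without control_HS replicate 2 and the most without control_HS replicate 1. There TMM scaling gave 220 higher and 541 lower, quantile normalization 271 and 494, and edgeR 207 and 556. The cause of these differences was not tested, beyond the fewer libraries of some fits. upd2, with 1 to 22 reads per library, is the gene that depth limits most.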

Other observations

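Of 15 other factors that the fat body secretes, edin, a peptide gene induced on infection, was lower in both InRCA groups than in control_HS. It averaged 9.08 ± 5.93 adjusted counts in InRCA_HS, 11.8 ± 5.79 in InRCA_noHS and 46.2 ± 15.6 in control_HS libraries (SD, n = 3 each), with log2 fold changes of -2.33 in InRCA_HS (limma adjusted p = 0.0395) and -1.97 in InRCA_noHS (adjusted p = 0.0421). Tsf1, the iron carrier transferrin, averaged 9029 ± 1215 in InRCA_HS, 11117 ± 2290 in InRCA_noHS and 20235 ± 5552 in control_HS libraries and was lower in InRCA_HS against control_HS, by -1.13 on the log2 scale (limma adjusted p = 0.0441). The imaginal disc growth factor Idgf1 was lower in InRCA_noHS than in control_HS (log2 fold change -0.95, limma adjusted p = 0.0361). The list's medians were -0.56 and -0.16 in InRCA_HS against control_HS and InRCA_noHS, and -0.31 in InRCA_noHS against control_HS. In these comparisons 2, 0 and 2 genes were lower and 0 higher, against 2.43%, 2.55% and 7.03% of all genes called. Leaving out 1 library kept the calls of edin, Tsf1 and Idgf1 in 1 to 3 of 9 fits. The 2 called comparisons share the control_HS libraries.

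The fat body protein gene Fbp2 stood at 104160, 155030 and 123840 adjusted counts in InRCA_HS, 198420, 122650 and 192270 in InRCA_noHS and 10683, 6081 and 7906 in control_HS libraries. It was higher in both InRCA groups than in control_HS without overlap (log2 fold changes 3.98 and 4.38, limma adjusted p = 0.000167 and 6.19e-05), and both calls held in all 9 fits without 1 library. Summed markers of muscle (9 of 9 genes) were 26745 to 30746 in InRCA_HS, 19153 to 31989 in InRCA_noHS and 32997 to 62974 in control_HS libraries. Those of gut (7 of 8 genes) were 5214 to 19398 in InRCA_HS, 6199 to 12848 in InRCA_noHS and 8528 to 9569 in control_HS libraries.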
